A study of Homo sapiens with 3 samples.

Results

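The genes described here encode the lysyl oxidases and collagen hydroxylases, the enzymes that modify and cross-link collagen. They are the 5 lysyl oxidases LOX, LOXL1, LOXL2, LOXL3 and LOXL4, the 3 lysyl hydroxylases PLOD1, PLOD2 and PLOD3, and the prolyl 4-hydroxylase alpha subunits P4HA1 and P4HA2. They were taken by gene symbol from the deposited table, which gave 10 of its 50867 genes. The samples were 3 libraries of polyA+ RNA from UM-UC-3 cells, an established line from a human bladder carcinoma, which had been infected with lentivirus and kept in puromycin for 2 weeks. The control carried a scramble short hairpin RNA (shControl, n = 1). The other libraries carried shRNA 1 or shRNA 2 against the long non-coding RNA BLACAT2 (shBLACAT2, n = 2), with 1 library for each hairpin; no library is stated to come from a repeated culture. All 3 libraries thus share the cell line, the lentiviral infection and the selection, and libraries are called by their labels.

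Collagen chains are modified before they leave the cell. In the endoplasmic reticulum, prolyl 4-hydroxylase hydroxylates prolines, which stabilises the triple helix, and the lysyl hydroxylases hydroxylate lysines; both kinds of enzyme need iron, oxygen, 2-oxoglutarate and ascorbate. Outside the cell, the copper-dependent lysyl oxidases turn lysines and hydroxylysines into aldehydes that form the cross-links between collagen and elastin molecules. LOX, LOXL2, PLOD2, P4HA1 and P4HA2 are known as genes induced by hypoxia, and cross-linked collagen is known for stiffening the matrix around tumours.

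The control library held 16424422 counts, that of shRNA 1 17670199 and that of shRNA 2 16216947. BLACAT2, listed as LINC00958, had 938 control counts against 816 (shRNA 1) and 1062 (shRNA 2). After TMM scaling this was 73.5% of the control level with shRNA 1 (95% counting interval of the ratio 0.668 to 0.808) and 99.6% with shRNA 2 (0.911 to 1.09). The targeted RNA was therefore not lower in the library labelled shRNA 2, and every direction below is that of a library and not of a measured loss of BLACAT2. Urothelial and epithelial markers were present: KRT7 had 19944, 20236 and 13229 counts in the same order, and of 11 such markers KRT20 alone was at 0 in every library. Values are given as deposited counts, as CPM (a gene's counts relative to its library's total) scaled with edgeR's TMM factors, or, to compare genes with each other, as deposited FPKM, which divides by gene length. Intervals are exact at the 95% level and cover counting error only.

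Of the 10 genes, 9 passed a filter of a mean of 1 CPM over the libraries, and LOXL4 did not. With both hairpins LOX, LOXL2, P4HA1 and P4HA2 were at least 2-fold below the control, and no gene of the 10 was at least 2-fold higher with both. Over all 15132 genes tested, 4.50% were lower and 5.29% higher by this rule. With shRNA 1 alone the same 4 genes were at least 2-fold lower (7.38% of all genes tested), and with shRNA 2 alone PLOD2 joined them to make 5 (8.76%). The median log2 fold of the 9 genes was −0.89 with shRNA 1 and −1.82 with shRNA 2, beside 0.01 and 0.04 over all genes tested. In edgeR's quasi-likelihood test of both hairpin libraries against the control, 0 of the 9 genes passed an adjusted p of 0.05, and 0.0397% of all genes did. An unadjusted p below 0.05 was found for 4 of the 9 (LOX, PLOD2, P4HA1 and P4HA2), and for 10.2% of all genes tested. DESeq2 passed LOX and P4HA2 among 3.49% of all genes, and limma passed none. The edgeR test has 1 residual degree of freedom per gene, which comes from the difference between the hairpin libraries. The single control library is taken to vary as much as they do. edgeR also draws on the spread of the other genes tested, so its p-values do not rest on that 1 degree alone. In bulk RNA, fewer cells that express a gene and less RNA per cell cannot be told apart.

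**Figure D1:**
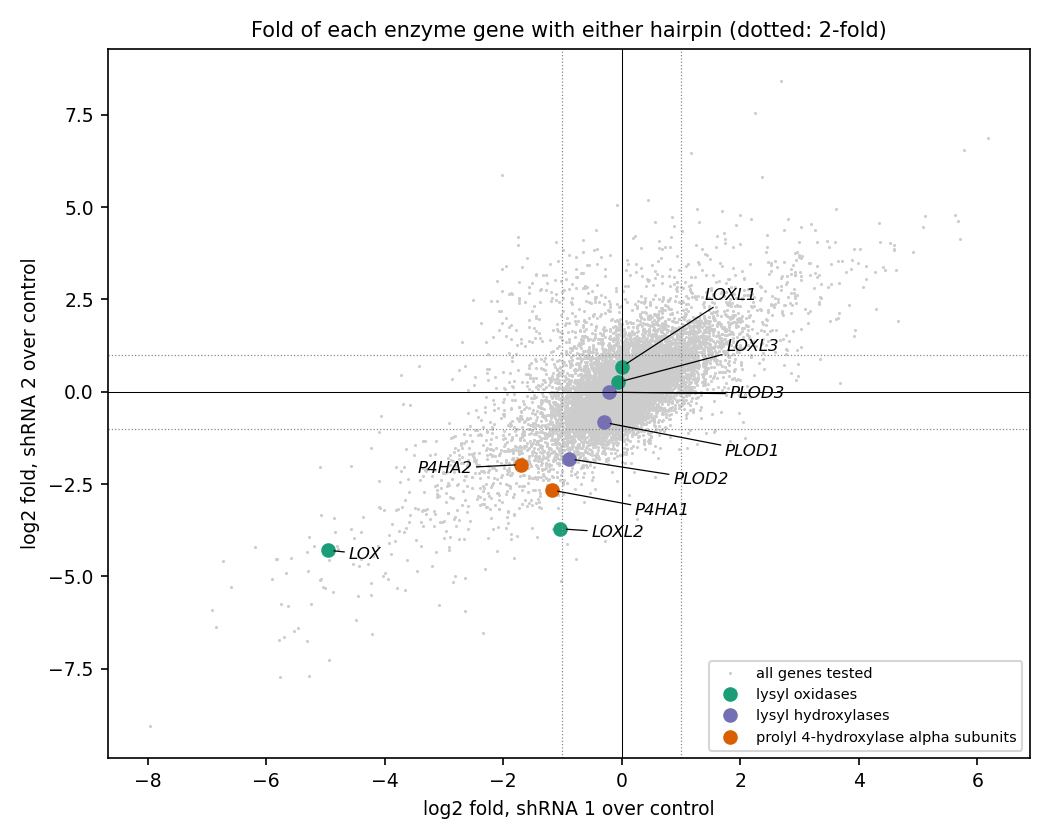
Log2 fold over the control with shRNA 1 (x axis) and with shRNA 2 (y axis) for the 9 enzyme genes that passed the filter, coloured by family, over all 15132 genes tested in grey. LOX lies far to the lower left at −4.96 and −4.29, LOXL2 lies low because of shRNA 2 (−1.04 and −3.71), and LOXL1, LOXL3, PLOD1 and PLOD3 lie inside the dotted 2-fold lines.

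Promoter sequence is shown for the genes that were at least 2-fold lower with shRNA 2 and have an entry, so that the hypoxia response core, a short motif bound by the hypoxia-inducible factors, can be read beside their values. RefSeq start sites on GRCh38.p14 were found for 9 of the 10 genes; LOXL2 had no entry. Each line gives the 250 bases before the first listed start, 5′ to 3′ on the gene's strand. Capitals mark ACGTG or GCGTG on either strand, and overlapping matches, as in a CACGTG box, were counted once.
LOX (chr5:122078260-122078509, minus strand): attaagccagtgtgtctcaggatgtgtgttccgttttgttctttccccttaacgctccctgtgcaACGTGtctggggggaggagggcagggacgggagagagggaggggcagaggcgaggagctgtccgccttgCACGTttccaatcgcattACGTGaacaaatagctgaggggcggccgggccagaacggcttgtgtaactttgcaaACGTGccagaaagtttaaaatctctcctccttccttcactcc
PLOD2 (chr3:146161185-146161434, minus strand): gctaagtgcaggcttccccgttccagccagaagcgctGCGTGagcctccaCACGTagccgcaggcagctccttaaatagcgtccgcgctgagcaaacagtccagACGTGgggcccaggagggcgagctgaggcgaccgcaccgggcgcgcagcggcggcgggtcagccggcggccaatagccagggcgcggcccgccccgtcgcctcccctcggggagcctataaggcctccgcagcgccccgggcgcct
P4HA1 (chr10:73096867-73097116, minus strand): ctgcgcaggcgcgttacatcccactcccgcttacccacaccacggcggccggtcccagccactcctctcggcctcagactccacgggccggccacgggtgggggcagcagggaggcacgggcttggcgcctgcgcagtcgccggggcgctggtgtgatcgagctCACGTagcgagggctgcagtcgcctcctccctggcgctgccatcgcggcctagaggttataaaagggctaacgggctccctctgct
P4HA2 (chr5:132227092-132227341, minus strand): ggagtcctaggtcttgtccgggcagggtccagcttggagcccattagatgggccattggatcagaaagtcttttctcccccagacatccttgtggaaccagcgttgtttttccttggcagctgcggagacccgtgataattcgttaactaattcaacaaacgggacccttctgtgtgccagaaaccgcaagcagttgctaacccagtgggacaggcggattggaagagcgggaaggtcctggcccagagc
The LOX promoter held 4 such cores, which begin 185, 116, 98 and 42 bases before the start. Of 27305 promoters of the same length, 43.1% held at least 1 core, 5.61% at least 3 and 1.86% at least 4. PLOD2 held 3 cores, P4HA1 held 1 and P4HA2 held 0 in this window. PLOD1 held 2, and LOXL1, LOXL3, LOXL4 and PLOD3 held 0. Of the 9 promoters, those of LOX, PLOD1, PLOD2 and P4HA1 thus held at least 1 core, a share near the 43.1% of all promoters. The TEAD core GGAATG was found at least 1 time in 11.9% of all promoters and at least 2 times in 0.95%. Of the 9, it was found in LOXL3 alone, with 2 matches. The AP-1 core TGANTCA was found in 6.60% of all promoters and in none of the 9. These matches describe letters in a window and say nothing of a factor's binding. A window can lie inside the gene's deposited interval. On the minus strand those of PLOD2 and P4HA2 do, with intervals that reach up to 146163653 and 132295315. Those of LOXL3 and PLOD3 (minus strand) and of LOXL1 and PLOD1 (plus strand) also lie wholly inside. The windows of LOX, LOXL4 and P4HA1 lie inside in part. For P4HA1 (window from 73096867, interval up to 73096974) that part holds its 1 core. Starts further upstream were not searched.

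LOX, the founding lysyl oxidase, was lower with both hairpins by more than any other of the enzymes. LOX (ENSG00000113083; hg38, chromosome 5, 122063195 to 122078285, minus strand) had 344 control counts against 11 (shRNA 1) and 18 (shRNA 2). The scaled levels were 22.7, 0.614 and 1.05 CPM, so the control stood alone and both hairpin libraries were close to the lower end of the measured genes. LOX thus passed the filter of a mean of 1 CPM only through its control level. Its deposited FPKM exceeded that of 46.5% of the genes tested in the control, but of 1.57% with shRNA 1 and 1.78% with shRNA 2. LOX held 2.70% of the control level with shRNA 1 (ratio interval 0.0134 to 0.0490) and 4.60% with shRNA 2 (0.0270 to 0.0738). The log2 folds averaged −4.63 ± 0.47 (SD, n = 2), and edgeR gave a log2 fold of −4.77 (SE 0.55) with an adjusted p of 0.0764. The adjusted p was 1.2e-07 in DESeq2, and the settings of edgeR, DESeq2 and limma spanned that value to 0.747, the latter from edgeR without the filter. The hairpin libraries did not differ from each other in LOX beyond counting error (shRNA 2 over shRNA 1 1.70, interval 0.762 to 3.99). SRFBP1, which overlaps LOX on the other strand, had 273, 401 and 391 counts and was thus above the control with both hairpins.

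LOXL2, a secreted lysyl oxidase that also acts on basement membrane collagen, was the most abundant of the 10 genes in the control and differed most between the hairpins. LOXL2 (ENSG00000134013; chromosome 8, 23297189 to 23425328, minus strand) had 6030 control counts against 3469 (shRNA 1) and 521 (shRNA 2). The scaled levels were 398.5, 193.7 and 30.3 CPM, a stepwise difference in which no library's counting interval reached the next. LOXL2 held 48.6% of the control level with shRNA 1 (ratio 0.486, interval 0.466 to 0.507) and 7.60% with shRNA 2 (0.0760, interval 0.0694 to 0.0831). The level with shRNA 2 was 6.40-fold lower than with shRNA 1 (ratio 0.156, interval 0.142 to 0.171), which compares 1 library with another. The mean log2 fold of −2.38 ± 1.89 (SD, n = 2) had a spread nearly as large as itself, with an edgeR adjusted p of 0.630. The 2-fold call with shRNA 1 was narrow: its log2 fold was −1.04 with TMM scaling and −0.90 with library totals as the scaling, which ended the call, as did −0.87 on the log2(FPKM + 1) scale. A processed transcript inside LOXL2 on the other strand, RP11-177H13.2, had 41, 15 and 4 counts, and although the library kit keeps strand, whether counting used it is not given in the sources used here. ENTPD4, which overlaps LOXL2 on the same strand, had 1283, 1312 and 1315 counts.

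LOXL1, a lysyl oxidase tied to elastic fibres, was at the control level with shRNA 1 and above it with shRNA 2. LOXL1 (ENSG00000129038; chromosome 15, 73925989 to 73952137, plus strand) had 669, 790 and 1216 counts, or 44.2, 44.1 and 70.7 CPM. The ratio to the control was 0.998 with shRNA 1 (interval 0.899 to 1.11) and 1.60 with shRNA 2 (1.45 to 1.76), with an edgeR adjusted p of 0.866 for both together. Its antisense RNA LOXL1-AS1 had 609, 765 and 769 counts. LOXL3 (ENSG00000115318; chromosome 2, 74532414 to 74555690, minus strand) had 192, 217 and 261 counts, with ratios of 0.955 (interval 0.783 to 1.17) and 1.20 (0.988 to 1.45), and both intervals hold the control level. LOXL4 (ENSG00000138131; chromosome 10, 98247690 to 98268250, minus strand) was sparsely counted, with 11, 7 and 12 counts, and at this depth no difference was detectable (ratios 0.538, interval 0.177 to 1.52, and 0.959, interval 0.388 to 2.40). LOX and LOXL2 were thus the 2 lysyl oxidases below the control with both hairpins by the 2-fold rule.

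**Figure D2:**
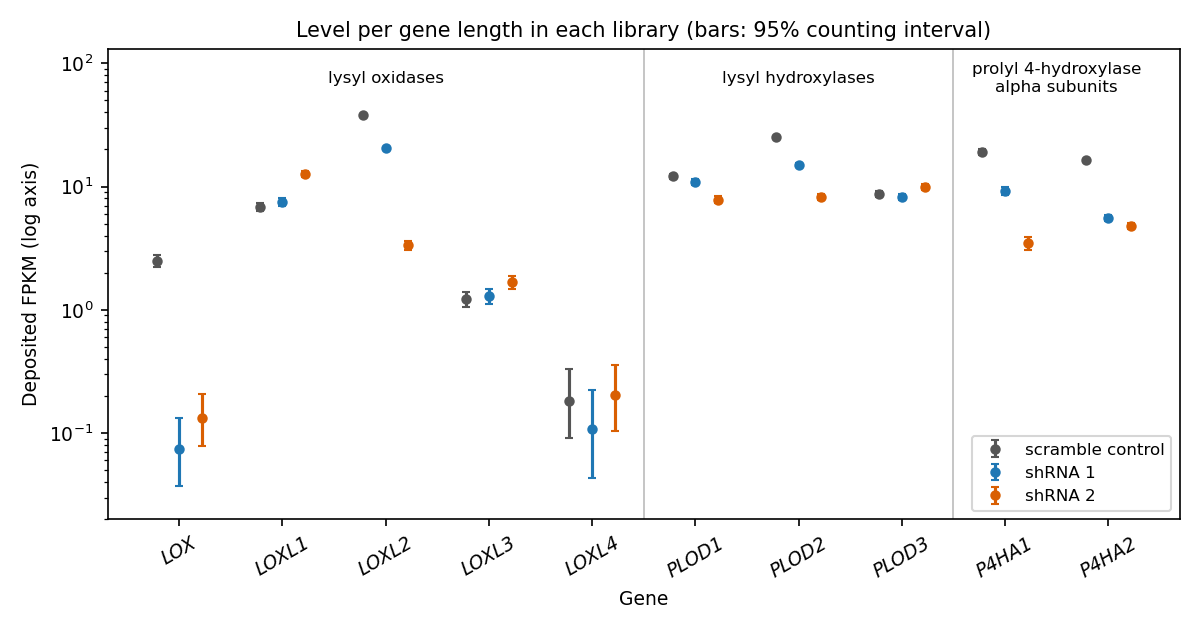
Deposited FPKM of each of the 10 genes in the control (grey), shRNA 1 (blue) and shRNA 2 (orange) libraries on a log axis, with 95% counting intervals and 1 library per point. LOX, LOXL2, PLOD1, PLOD2, P4HA1 and P4HA2 have their highest point in the control, and LOXL1 has its highest, 12.6, with shRNA 2.

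The lysyl hydroxylases differed by enzyme. PLOD2, which hydroxylates the telopeptide lysines from which the stable pyridinoline cross-links form, was the lowest relative to the control. PLOD2 (ENSG00000152952; chromosome 3, 146069440 to 146163653, minus strand) had 5116 control counts against 3263 (shRNA 1) and 1649 (shRNA 2), or 338.1, 182.2 and 95.8 CPM. The control was highest and shRNA 2 lowest, with ratios of 0.539 (interval 0.516 to 0.563) and 0.284 (0.268 to 0.300). Only the second passed the 2-fold rule, and edgeR's log2 fold of −1.28 (SE 0.46) had an adjusted p of 0.431. PLOD1 (ENSG00000083444; chromosome 1, 11934205 to 11975538, plus strand), which acts mainly on lysines of the collagen helix, had 1528, 1471 and 976 counts. Its ratios were 0.814 (interval 0.757 to 0.874) and 0.562 (0.518 to 0.609), with an adjusted p of 0.741. PLOD3 (ENSG00000106397; chromosome 7, 101205977 to 101218420, minus strand), which also transfers glucose to hydroxylysine that carries galactose, had 1291, 1311 and 1455 counts. Its ratio was 0.858 with shRNA 1 (interval 0.794 to 0.927) and 0.991 with shRNA 2 (0.919 to 1.07), and its mean log2 fold changed sign with the scaling, from −0.12 with TMM to 0.06 with library totals, so no direction is given. With library totals the median over all genes tested moved to log2 folds of 0.14 and 0.24.

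Both prolyl 4-hydroxylase alpha subunits, which carry the catalytic site of the enzyme, passed the 2-fold rule as lower with both hairpins. P4HA1 (ENSG00000122884; chromosome 10, 73007217 to 73096974, minus strand) had 1420 control counts against 739 (shRNA 1) and 253 (shRNA 2), or 93.8, 41.3 and 14.7 CPM. The library of shRNA 2 was 2.81-fold below that of shRNA 1 (ratio 0.356, interval 0.308 to 0.412), and the ratios to the control were 0.440 (interval 0.402 to 0.481) and 0.157 (0.137 to 0.179). P4HA1 had a mean log2 fold of −1.92 ± 1.05 (SD, n = 2) and an edgeR adjusted p of 0.402. On the log2(FPKM + 1) scale its log2 fold with shRNA 1 was −0.97, which ended the 2-fold call. P4HA2 (ENSG00000072682; chromosome 5, 132191838 to 132295315, minus strand) had 3639, 1330 and 1051 counts, or 240.5, 74.3 and 61.1 CPM. Both hairpin libraries lay close together and far from the control, with ratios of 0.309 (interval 0.290 to 0.329) and 0.254 (0.237 to 0.272). The mean log2 fold of P4HA2 was −1.83 ± 0.20 (SD, n = 2), larger than the spread of the 2 hairpin libraries; edgeR's estimate was −1.83 (SE 0.32) with an adjusted p of 0.134. The adjusted p was 0.00209 in DESeq2, and the settings spanned that value to 0.747, again from edgeR without the filter. PDLIM4 lies within the deposited P4HA2 interval on the other strand and had 1786, 1010 and 1232 counts (log2 folds −1.06 and −0.72), so reads of both genes may have been shared if strand was not used.

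The make-up of each family differed between the libraries, which is a comparison within a library and does not depend on how libraries are scaled. Among the lysyl oxidases, LOXL2 made up 78.1% of the summed FPKM in the control library, 69.5% in that of shRNA 1 and 18.6% in that of shRNA 2. LOXL1 made up 14.0%, 25.5% and 70.1%, and was thus the leading lysyl oxidase with shRNA 2. The FPKM of LOXL2 was 5.59 times that of LOXL1 in the control, 2.72 times with shRNA 1 and 0.266 times with shRNA 2. LOX itself made up 5.10%, 0.252% and 0.737%. The summed level of the family was 478.8 CPM in the control against 250.9 (shRNA 1) and 117.9 (shRNA 2). In counts, the share of LOXL2 was 83.2% (exact interval 82.3 to 84.1), 77.2% (75.9 to 78.4) and 25.7% (23.8 to 27.7), so the differences between libraries exceeded counting error.

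Among the lysyl hydroxylases, PLOD2 led in the control with 54.7% of the summed FPKM and in the shRNA 1 library with 43.9%. With shRNA 2 it made up 31.6%, PLOD3 38.3% and PLOD1 30.1%. The summed level was 524.4, 337.5 and 237.1 CPM. For prolyl 4-hydroxylase, P4HA3, the alpha subunit that is not among the 10 genes, was minor, with 1.37%, 1.11% and 1.44% of the summed FPKM. The summed level of the 3 alpha subunits was 337.6, 116.5 and 76.5 CPM, while P4HB, the shared beta subunit, had 6860, 6655 and 5754 counts (log2 folds −0.29 and −0.44). The ratio of P4HA2 to P4HA1 went down with shRNA 1 and up with shRNA 2, at 0.852 (control), 0.598 and 1.38 by FPKM. Which of the pair was higher depended on the length used: per base of the GENCODE principal transcript the same ratio was 2.18, 1.53 and 3.53, because the deposited FPKM of P4HA2 corresponds to a length of 13574 bases against 3349 in that transcript. For P4HA1 the lengths are 4510 and 2844 bases.

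**Figure D3:**
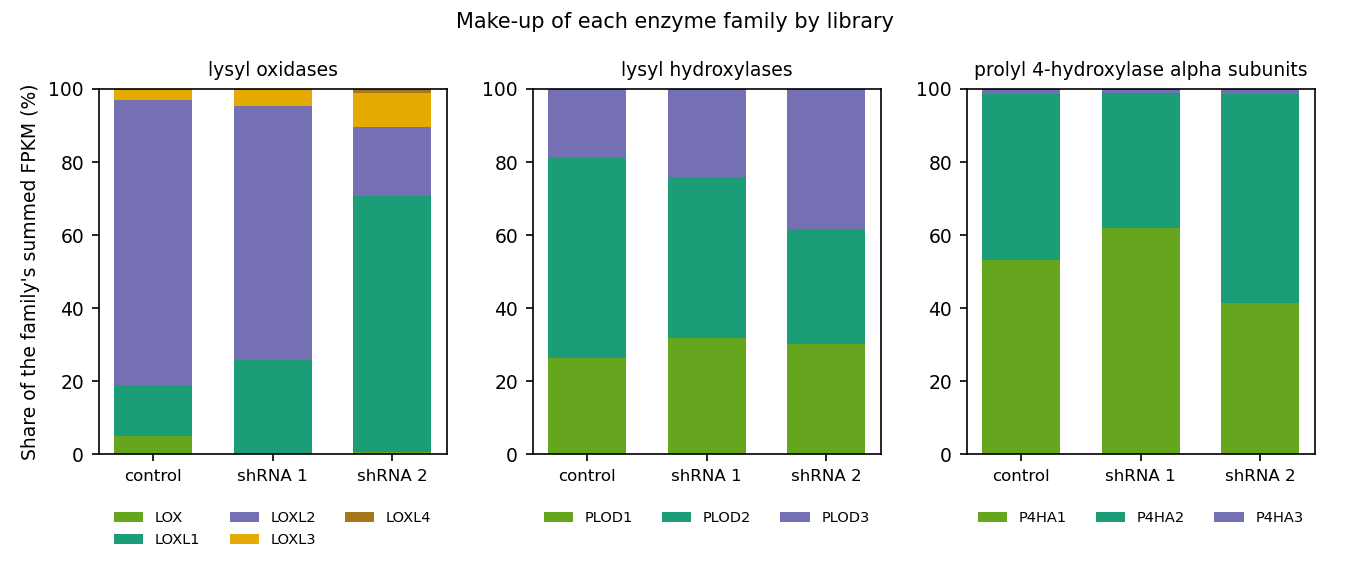
Share of each gene in its family's summed FPKM (y axis, percent) in the control, shRNA 1 and shRNA 2 libraries, 1 library per bar. The LOXL2 share goes from 78.1% in the control to 18.6% with shRNA 2 while that of LOXL1 goes from 14.0% to 70.1%, and PLOD3 takes 38.3% of the lysyl hydroxylases with shRNA 2.

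By deposited FPKM, the order of the genes in the control was LOXL2 (38.1), PLOD2 (25.2), P4HA1 (19.2), P4HA2 (16.3), PLOD1 (12.1), PLOD3 (8.73), LOXL1 (6.82), LOX (2.49), LOXL3 (1.22) and LOXL4 (0.183), and no neighbours in that order had overlapping counting intervals. With shRNA 1 the order began with LOXL2 (20.4), PLOD2 (14.9) and PLOD1 (10.8). There the intervals of P4HA1 (9.27) and PLOD3 (8.24) overlapped, as did those of PLOD3 and LOXL1 (7.49), and LOX (0.0740) came last with an interval that overlapped that of LOXL4 (0.108). With shRNA 2 the order began with LOXL1 (12.6) and PLOD3 (9.96), followed by PLOD2 (8.22) and PLOD1 (7.84), whose intervals overlapped. P4HA2 (4.77) came next, then P4HA1 (3.46) and LOXL2 (3.34) with overlapping intervals, and LOX (0.132) was again last, with an interval that overlapped that of LOXL4 (0.203). These orders rest on the lengths behind the deposited FPKM. Per kilobase of the GENCODE principal transcript, the genes in places 1 and 2 were the same in each of the 3 libraries, but P4HA1 went from place 3 to 5 in the control, where P4HA2 (1087 counts per kilobase) stood above it (499.3), and from 4 to 7 with shRNA 1. With shRNA 2, LOXL2 (146.8 counts per kilobase, interval 134.5 to 160.0) then stood above P4HA1 (88.96, interval 78.33 to 100.6). LOX and LOXL4 changed places with both hairpins, with overlapping intervals (3.53 and 3.28 counts per kilobase with shRNA 2).

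The genes nearest to each called enzyme in both log2 folds were found among 12997 protein-coding genes, by Euclidean distance in log2 units over the 2 folds, which share the control. Among the genes nearest to LOX was the integrin gene ITGB3 (distance 0.17; 236, 8 and 12 counts). Nearest to LOXL2 were the integrin gene ITGA4 (0.12; 57, 29 and 3 counts), OLFML2B (0.42) and CCDC85A (0.45). For P4HA1 these were BTBD11 (0.10), the cathepsin gene CTSV (0.13) and ARRDC4 (0.16), and for P4HA2 they were RAI14 (0.02), the growth factor gene FGF18 (0.03) and LIMD2 (0.05). The closest match of LOXL2 after ITGA4 was farther away than any listed for LOX, P4HA1 or P4HA2. ITGB3 and ITGA4 passed the filter only through their control level, which favours a lower call. Their distances rest on few counts with the hairpins, and no counting interval was worked out for any distance.

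Several of the collagens on which these enzymes act were below the control in the same libraries. Of 14 listed collagen and elastin substrates 8 passed the filter, of which the 2-fold rule put 6 lower and 0 higher. Over all genes tested that rule put 4.50% lower and 5.29% higher. COL1A1, a chain of the fibrillar type I collagen, had 5253, 328 and 162 counts (log2 folds −4.24 and −5.19). The basement membrane chains COL4A1 (10359, 979 and 908 counts; −3.64 and −3.69) and COL4A2 (13739, 2146 and 850; −2.92 and −4.20) and the fibril-regulating chain COL5A1 (20279, 3468 and 1837; −2.79 and −3.65) were lower as well. COL2A1 (named with its values known) had 58, 25 and 457 counts and so stood above the control with shRNA 2 and below it with shRNA 1. Elastin had 1, 0 and 0 counts. The list's median log2 folds were −2.53 and −2.74, and 0 of the 8 genes passed edgeR's adjusted test while 6 had an unadjusted p below 0.05 (10.2% of all genes tested).

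Genes of procollagen processing and lysyl oxidase activation were in part lower. Of 14 listed genes 11 passed the filter, with medians of −0.95 and −0.61. Of the 11, 4 were lower and 0 higher by the 2-fold rule (4.50% and 5.29% of all genes tested). These 4 were FBN1, the microfibril protein fibrillin (2578, 246 and 122 counts; log2 folds −3.62 and −4.56), POSTN, periostin (89, 16 and 7; −2.57 and −3.51), FBLN5, an elastic fibre protein that binds lysyl oxidases (38, 6 and 7; −2.53 and −2.32), and FN1, fibronectin (908025, 303700 and 271305; −1.82 and −1.93). BMP1, the protease that cleaves the LOX propeptide, was named with its values known and had 2431, 1673 and 1859 counts (−0.78 and −0.57). FBLN5 (2.51, 0.335 and 0.407 CPM) and POSTN (5.88, 0.893 and 0.407) passed the filter only through their control level, which favours a lower call. None of the 11 passed edgeR's adjusted test, and 4 had an unadjusted p below 0.05, beside 10.2% of all genes.

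The other collagen folding and modification genes stood closer to the control. All 15 passed the filter, and the medians were −0.38 and −0.44. By the 2-fold rule 2 were lower and 0 higher (4.50% and 5.29% of all genes tested). The 2 were P3H1, a prolyl 3-hydroxylase (969, 521 and 305 counts; −1.14 and −1.85), and P4HA3 (50, 18 and 12; −1.61 and −2.07). P4HA3 (3.304, 1.005 and 0.6974 CPM) passed the filter only through its control level, which favours a lower call. SERPINH1, the collagen chaperone HSP47, was named with its values known and had 4585, 3444 and 1436 counts (−0.66 and −1.86). Of the 15 genes, 0 passed edgeR's adjusted test and 2 had an unadjusted p below 0.05, a share near the 10.2% of all genes. The genes of copper, iron and ascorbate supply, the cofactors of these enzymes, had 0 of 9 measured genes at least 2-fold away with both hairpins, and medians of −0.28 and −0.37. Their most abundant were the transferrin receptor TFRC (−0.48 and −0.61) and the zinc and iron transporter SLC39A14 (−0.78 and 0.74), and none of the 9 had an edgeR unadjusted p below 0.05.

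**Figure D4:**
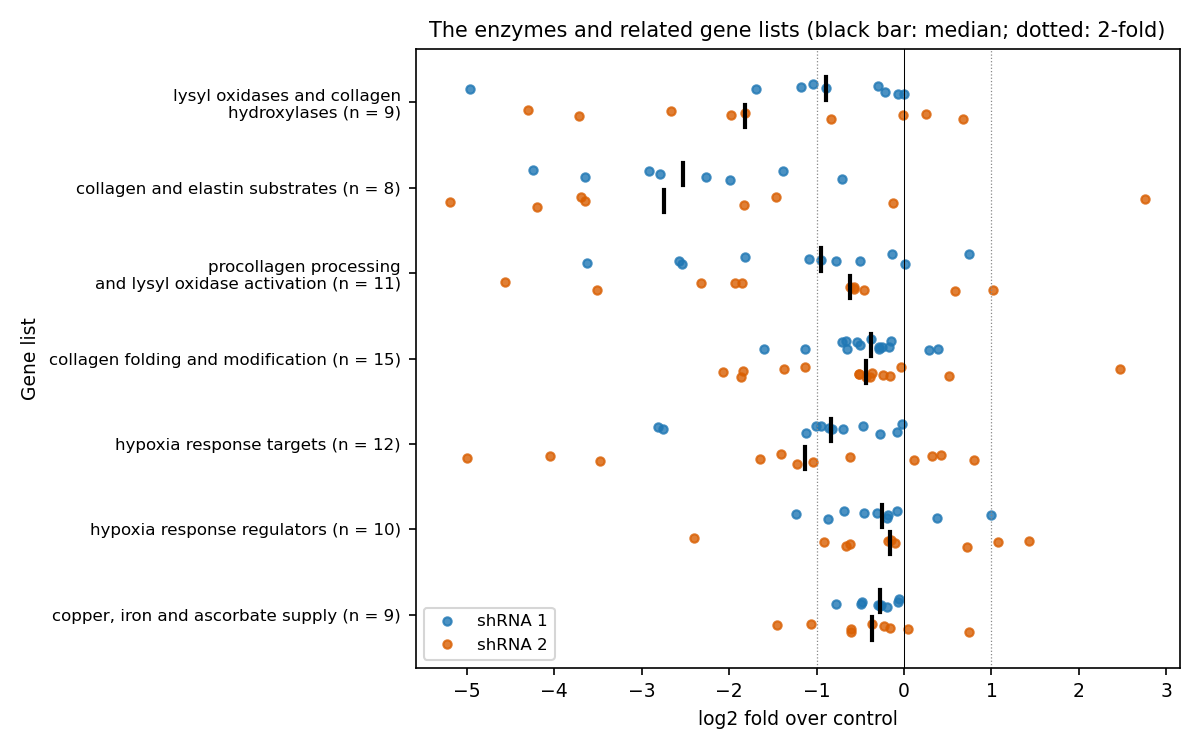
Log2 folds over the control with shRNA 1 (blue) and shRNA 2 (orange) for the 9 enzyme genes that passed the filter and for the measured genes of 6 related lists, with the median of each as a black bar. The substrate collagens have the lowest medians (−2.53 and −2.74), and the copper, iron and ascorbate genes have medians of −0.28 and −0.37.

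Because several of these enzymes are known hypoxia genes, the hypoxia response was read beside them. The 12 hypoxia targets other than the enzymes, all measured, had medians of −0.84 and −1.14. By the 2-fold rule 0 were higher and 4 were lower (5.29% and 4.50% of all genes tested). These were ANGPTL4 (449, 74 and 14 counts; −2.81 and −5.00), NDRG1 (5083, 890 and 516; −2.75 and −3.48), PDK1 (643, 348 and 353; −1.12 and −1.05) and BNIP3 (2068, 1214 and 752; −1.01 and −1.64). VEGFA and SLC2A1, chosen after their values were seen, were above the control with shRNA 2 (log2 folds 0.80 and 0.11) and below it with shRNA 1 (−0.46 and −0.70). Among 10 measured regulators, EGLN3, an oxygen-sensing prolyl hydroxylase of the hypoxia-inducible factors, was lower by the 2-fold rule (138, 68 and 28 counts; −1.24 and −2.40), and 0 were higher by that rule. The alpha subunits HIF1A (5239, 4526 and 3883 counts) and EPAS1 (3389, 3782 and 6349), chosen after their values were seen, had log2 folds of −0.45 and −0.62 and of −0.09 and 0.72. By edgeR's adjusted test 0 genes of either list passed, and 6 of the 12 targets and 2 of the 10 regulators had an unadjusted p below 0.05, beside 10.2% of all genes.

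Fibroblasts are a rich source of these enzymes in tissue, so their markers are given beside them. Of 10 fibroblast markers, 4 passed the filter, and PDGFRB (152, 15 and 31 counts) and FAP (102, 8 and 21) were lower by the 2-fold rule. Of all genes tested, 4.50% were lower by that rule. FAP (6.74, 0.447 and 1.22 CPM) passed the filter only through its control level, which favours a lower call. The summed level of the 10 markers was 24.0 CPM in the control against 4.75 (shRNA 1) and 11.5 (shRNA 2). The defining markers DCN (2, 2 and 1 counts), LUM (2, 0 and 0) and PDGFRA (3, 0 and 2) were at or near 0 in every library, while COL1A2 (16, 0 and 1) and COL3A1 (20, 0 and 1), which the substrate list also holds, were at or near 0 with both hairpins. ACTA2, smooth muscle actin, had 38, 38 and 107 counts (log2 folds −0.23 and 1.27) and held 6.22 of the 11.5 CPM with shRNA 2, while MYH11 (26, 20 and 28 counts) and THY1 (2, 2 and 5) were low throughout. The part of these markers in the results was not tested. Of 10 measured urothelial and epithelial markers, 2 were higher by the 2-fold rule (CDH1, E-cadherin, with 1877, 5201 and 4565 counts, and UPK2 with 35, 108 and 104) and 1 was lower (TP63 with 85, 8 and 13). By that rule 5.29% of all genes tested were higher and 4.50% lower. TP63 (5.617, 0.4467 and 0.7555 CPM) also passed the filter only through its control level. Of 7 endothelial and 7 leukocyte markers, 2 each passed the filter and none was at least 2-fold away with both hairpins in the same direction; their summed levels were 5.02, 3.96 and 9.07 CPM and 3.11, 1.34 and 18.6 CPM.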

How the data were processed

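RNA sequencing counts and FPKM values of 3 UM-UC-3 libraries were read from 1 deposited table. The whole-number read counts and the FPKM values were made by the authors; the submitters' processing notes name the aligner TopHat2 2.0.9 and, as genome, hg38. How reads were counted, and with which strand setting and annotation, is not given in the sources used here. The TGFB1 row was broken over 4 lines and left out. Counts of the 15132 genes whose mean reached 1 CPM were scaled with TMM (factors 0.924, 1.02 and 1.07), and log2 folds used a prior count of 2. The test was edgeR 4.0.16's quasi-likelihood test over all genes, two-sided, with Benjamini-Hochberg adjustment. It was first run on simulated data with a single dispersion and equal folds in both hairpin libraries. Only recovery of the median log2 folds was required there, so its p-values for hairpin libraries that differ were not checked. DESeq2 1.42.0, limma 3.58.1 and the settings in the closing section were alternatives. Ratio intervals are exact conditional binomial intervals and FPKM intervals are exact Poisson intervals, both at 95%. The edgeR test gives no SE. The SE printed with its log2 folds is the absolute log2 fold divided by the square root of the test's F statistic. Related genes were named by rule: per list up to 4 measured genes at least 2-fold away with both hairpins or, with none, the 2 most abundant. Some results on genes near the enzymes in position or pattern are not reported here. The 10 genes and the lists were chosen with earlier results of these data known. Strand, gene types and transcript lengths come from GENCODE release 29, in which 98.5% of the 50867 genes were found. P-values measure only the spread between these libraries. In edgeR, DESeq2 and limma the spread of each gene is moderated with that of the other genes tested.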

Additional observations from a re-analysis of the deposited data

How the results depend on the processing

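The count of 4 enzymes at least 2-fold lower was 3 with library totals, when LOXL2 dropped out, and 2 with log2(FPKM + 1), when P4HA1 also did. The added 1 is large beside low FPKM, so LOX then had a mean log2 fold of −1.66. The mean log2 fold of LOXL2 was −2.21 and −2.02 under these settings and that of P4HA1 −1.58 under the latter. Leaving out either hairpin library gave 4 to 5 enzymes. Without shRNA 1, PLOD2 joined at −1.82. Without shRNA 2, the mean folds of LOXL1 (−0.003, against 0.675 without shRNA 1) and LOXL3 (−0.066, against 0.255) turned negative. PLOD3 turned positive with library totals (0.055; adjusted p 0.974) and with log2(FPKM + 1) (0.049). DESeq2's size factors and prior counts of 0.5 and 5 kept all 4 enzymes.

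Over all genes, edgeR passed 6, against 0 without the filter, 0 at 5 CPM, 0 with limma and 528 with DESeq2. By size, 1481 genes became 628 with log2(FPKM + 1), 2805 without the filter and 979 at 5 CPM, and 2315 to 3286 with 1 hairpin left out. Library totals gave 553 genes lower and 1031 higher, against 681 and 800. With 1 hairpin left out no degree of freedom is left, so no test was run. No paired analysis was possible because the control has 1 library.

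In counts, the shares in the control, shRNA 1 and shRNA 2 were 83.2%, 77.2% and 25.7% for LOXL2, 64.5%, 54.0% and 40.4% for PLOD2 and 71.2%, 63.7% and 79.9% for P4HA2. Per base of the principal transcript, a setting chosen after seeing the data, they were 80.6%, 70.9% and 19.7%, 58.8%, 47.9% and 34.7%, and 67.6%, 59.7% and 76.9%. The shares by FPKM of P4HA2 were 45.4%, 37.0% and 57.2%. The 1 control library limits every result.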

Other observations

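Among the copper amine oxidases outside the lysyl oxidase family, AOC1, the diamine oxidase that degrades histamine and putrescine, stood above the control. Its counts were 10 (control), 350 (shRNA 1) and 49 (shRNA 2), with log2 folds of 4.66 and 1.93 and an edgeR adjusted p of 0.414. With 0.661 CPM in the control, AOC1 passed the filter only through the hairpin libraries, which favours a higher call. AOC2 (30, 20 and 37 counts) was not 2-fold away with both hairpins, and AOC3 (14, 15 and 14) did not pass the filter.

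Within 250 kb on either side, LOX had 1 tested neighbour and PLOD2 had 1, and neither was at least 2-fold away with both hairpins. LOXL2 had 11 tested neighbours, of which 1 (RP11-177H13.2, inside the gene) was lower. P4HA1 had 9, of which 0 were lower or higher by that rule, and P4HA2 had 9, of which 4 were higher, IRF1 among them, and 1 (CSF2) was lower. Over all genes tested, 5.29% were higher and 4.50% lower by that rule. IRF1 and CSF2 were named after their values were seen.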
